A study of Mus musculus with 4 samples.

Results

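The genes described here encode the microtubule transport machinery of the cell: kinesins with a numbered Kif name and their light chains (Klc), cytoplasmic dynein subunits (Dync, Dynl), dynactin subunits (Dctn), alpha, beta and gamma tubulins with the gamma tubulin complex (Tuba, Tubb, Tubg), the microtubule-associated proteins Map2, Map1a and Map1b, and the stathmins Stmn1 to Stmn4. They were chosen by gene symbol alone, among probe sets that carry exactly 1 symbol. This gave 75 of the 12488 probe sets on the array, for 54 genes, each read through its probe set with the highest mean. No probe set for Map1a met the rule. Of the 54 genes, 42 were bright enough to be tested, among 5546 such genes in all. The other 12 were dimmer and are described with their signals only. A gene was tested where its mean log2 signal reached that of 116.4.

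The samples were total RNA from hippocampal area CA1 of young male C57BL/6J mice. All 4 were controls that had been handled, and the labels name no other treatment, transgene or drug. They were collected 1, 2, 4 or 6 h after the last shock given to other, treated mice, which are not analysed here. Each hour had 1 sample on 1 array, so a difference between hours has no replicate check, and precision is limited by there being 4 arrays. The labels do not say how many mice gave each sample, nor whether mice were pooled. Signals are the authors' intensities on a linear scale. They compare arrays for 1 probe set, not 1 gene with another. Signals under 36.8 were treated as 36.8 when a fold or a log2 difference was taken.

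Microtubules are hollow polymers of alpha and beta tubulin, started from gamma tubulin rings, and they form the tracks along axons and dendrites. Kinesins walk mostly towards the growing end and carry vesicles, organelles and RNA out of the cell body. Cytoplasmic dynein, held to its cargo by dynactin, walks the other way. Map2 bundles microtubules in dendrites, Map1b does so in growing axons, and stathmins bind free tubulin and favour disassembly. In a pyramidal neuron, whose axon is far longer than its cell body is wide, this transport supplies the synapses.

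The 2 h array differed from the others in its RNA quality ratios and in how many genes stood high on it alone, and this touches every result below that concerns it. Gapdh probe sets at the 3′ end, set over those at the 5′ end as a control for RNA degradation, gave a ratio of 4.10, 1.08, 3.62 and 3.95 at 1, 2, 4 and 6 h, and beta-actin probe sets gave 2.27, 1.72, 2.59 and 2.93. Of 5546 genes, 76 had a 2 h signal at least 2-fold above each other array, against 2, 11 and 14 genes for the 1, 4 and 6 h arrays. In the other direction it did not stand out, since its signal was at least 2-fold below each other array for 53 genes, while the 1, 4 and 6 h arrays had 63, 62 and 74 such genes. The neuronal markers Nefl, Nefm, Snap25 and Syt1 (4 of the 5 listed were on the array, all tested) summed to a signal of 19940, 23092, 21761 and 21159. Syt1 and Nefm were higher at 2 h while Snap25 lay between 17938 and 19821. Of the CA1 pyramidal markers, Wfs1 had 2293, 1877, 2484 and 2508, while Camk2a had 41.0, 351, 195 and 43.3 and was too dim to test. The astrocyte markers summed to between 12406 and 15674 (4 of 5 on the array), and the sum was highest at 2 h. Aldoc and Aqp4 were highest there too, but Gfap was lowest there and Slc1a2 was highest at 4 h. The oligodendrocyte markers summed to between 19842 and 25938 (4 of 5). Their sum was lowest at 2 h, close to the 19927 at 1 h. Only Mobp was lowest at 2 h, with 11091, 8925, 16716 and 12594, while Mag, Mbp and Mog were highest there. Choroid plexus markers (2 of 3 on the array) summed to 531, 1069, 290.2 and 627, with Ttr at 222, 892, 108 and 356. The other, Kl, was lowest at 2 h, with 309.2, 177.5, 182.7 and 270.5. The summed markers of microglia (4 of 4) ran between 3280 and 4306 and were highest at 2 h. So were those of ciliated ependyma (2 of 3, between 308 and 493). The sum for endothelium (3 of 3, between 736 and 1105) was lowest at 2 h. Single markers did not all follow these sums. Csf1r of microglia was lowest at 2 h, and the dim ependymal Tekt1 was highest at 6 h. Of the endothelial markers only Cldn5 was lowest at 2 h, while Flt1 and Pecam1 were lowest at 6 h. The part of RNA quality, or of the mix of cells, in the differences at 2 h was not tested. In tissue RNA, fewer cells of a type and less RNA per cell cannot be told apart.

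Among the transport kinesins, signals were far higher at 2 h for some genes and within 2-fold of 1 h for close relatives. Kif5a, a neuron-enriched heavy chain of conventional kinesin, had signals of 260.2, 2420.3, 286 and 233 at 1, 2, 4 and 6 h. Only the 2 h array was high, at 9.30 times the 1 h signal and 8.46 times the highest of the other arrays, while the other arrays lay within 1.23-fold of each other. This probe set has an Affymetrix suffix for probes common to several transcripts, so its signal is uncertain as a single-gene value. A second Kif5a probe set, too dim to test, had 8.1, 188, 138 and 98.4, so there the 4 and 6 h arrays also stood above 1 h. Kif5c, the other neuron-enriched heavy chain, was too dim to test, with 64.4, 472, 26.9 and 53.1. It was high at 2 h only. Kif5b, the heavy chain found in most tissues, had 1566, 1252, 1005 and 1176, with its highest signal at 1 h.

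The Kif1 family, which carries synaptic vesicle precursors and mitochondria, also held genes that were high at 2 h and one that was not. Kif1a, the neuronal carrier of synaptic vesicle precursors, had 193, 1384, 367 and 184. Its 2 h signal was 7.18 times that at 1 h and 3.77 times the highest of the others. Kif1b, too dim to test, had 105, 353, 55.0 and 44.8, and a dimmer probe set of it was highest at 2 and 6 h, with 77.0 and 74.5, and under the floor at 1 and 4 h. Kif1c, a widely expressed relative, had 470.2, 319, 344 and 540.2, and was lower at 2 h and 4 h than at 1 h and 6 h.

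The subunits of heterotrimeric kinesin-2, which moves cargo in cilia and dendrites, did not run together either. Kif3b had 98.4, 340.2, 170.1 and 179.9, so its 2 h signal was 3.46 times that at 1 h and 1.89 times the highest of the others. Its partner Kif3a had 259.6, 259.9, 276 and 175, with the low value at 6 h. Its dimmer probe set, which was not tested, had 106, 116, 26.9 and 58.8. Kif3c, a neuron-enriched partner of Kif3a, was steady at 909, 836, 1018 and 958. Kif2a, which shortens microtubules from their ends, had 717, 623, 473 and 621. Kif16b, an endosome motor, and Kif9, a kinesin of motile cilia, were too dim to test. Kif16b had 84.8, 59.1, 122 and 55.7, and the probe sets of Kif9 disagreed, with 106, 19.7, 24.5 and 176 on the brighter and 7.4, 74.1, 13.2 and 76.9 on the other. The plot of signals by hour shows these families side by side.

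**Figure D1:**
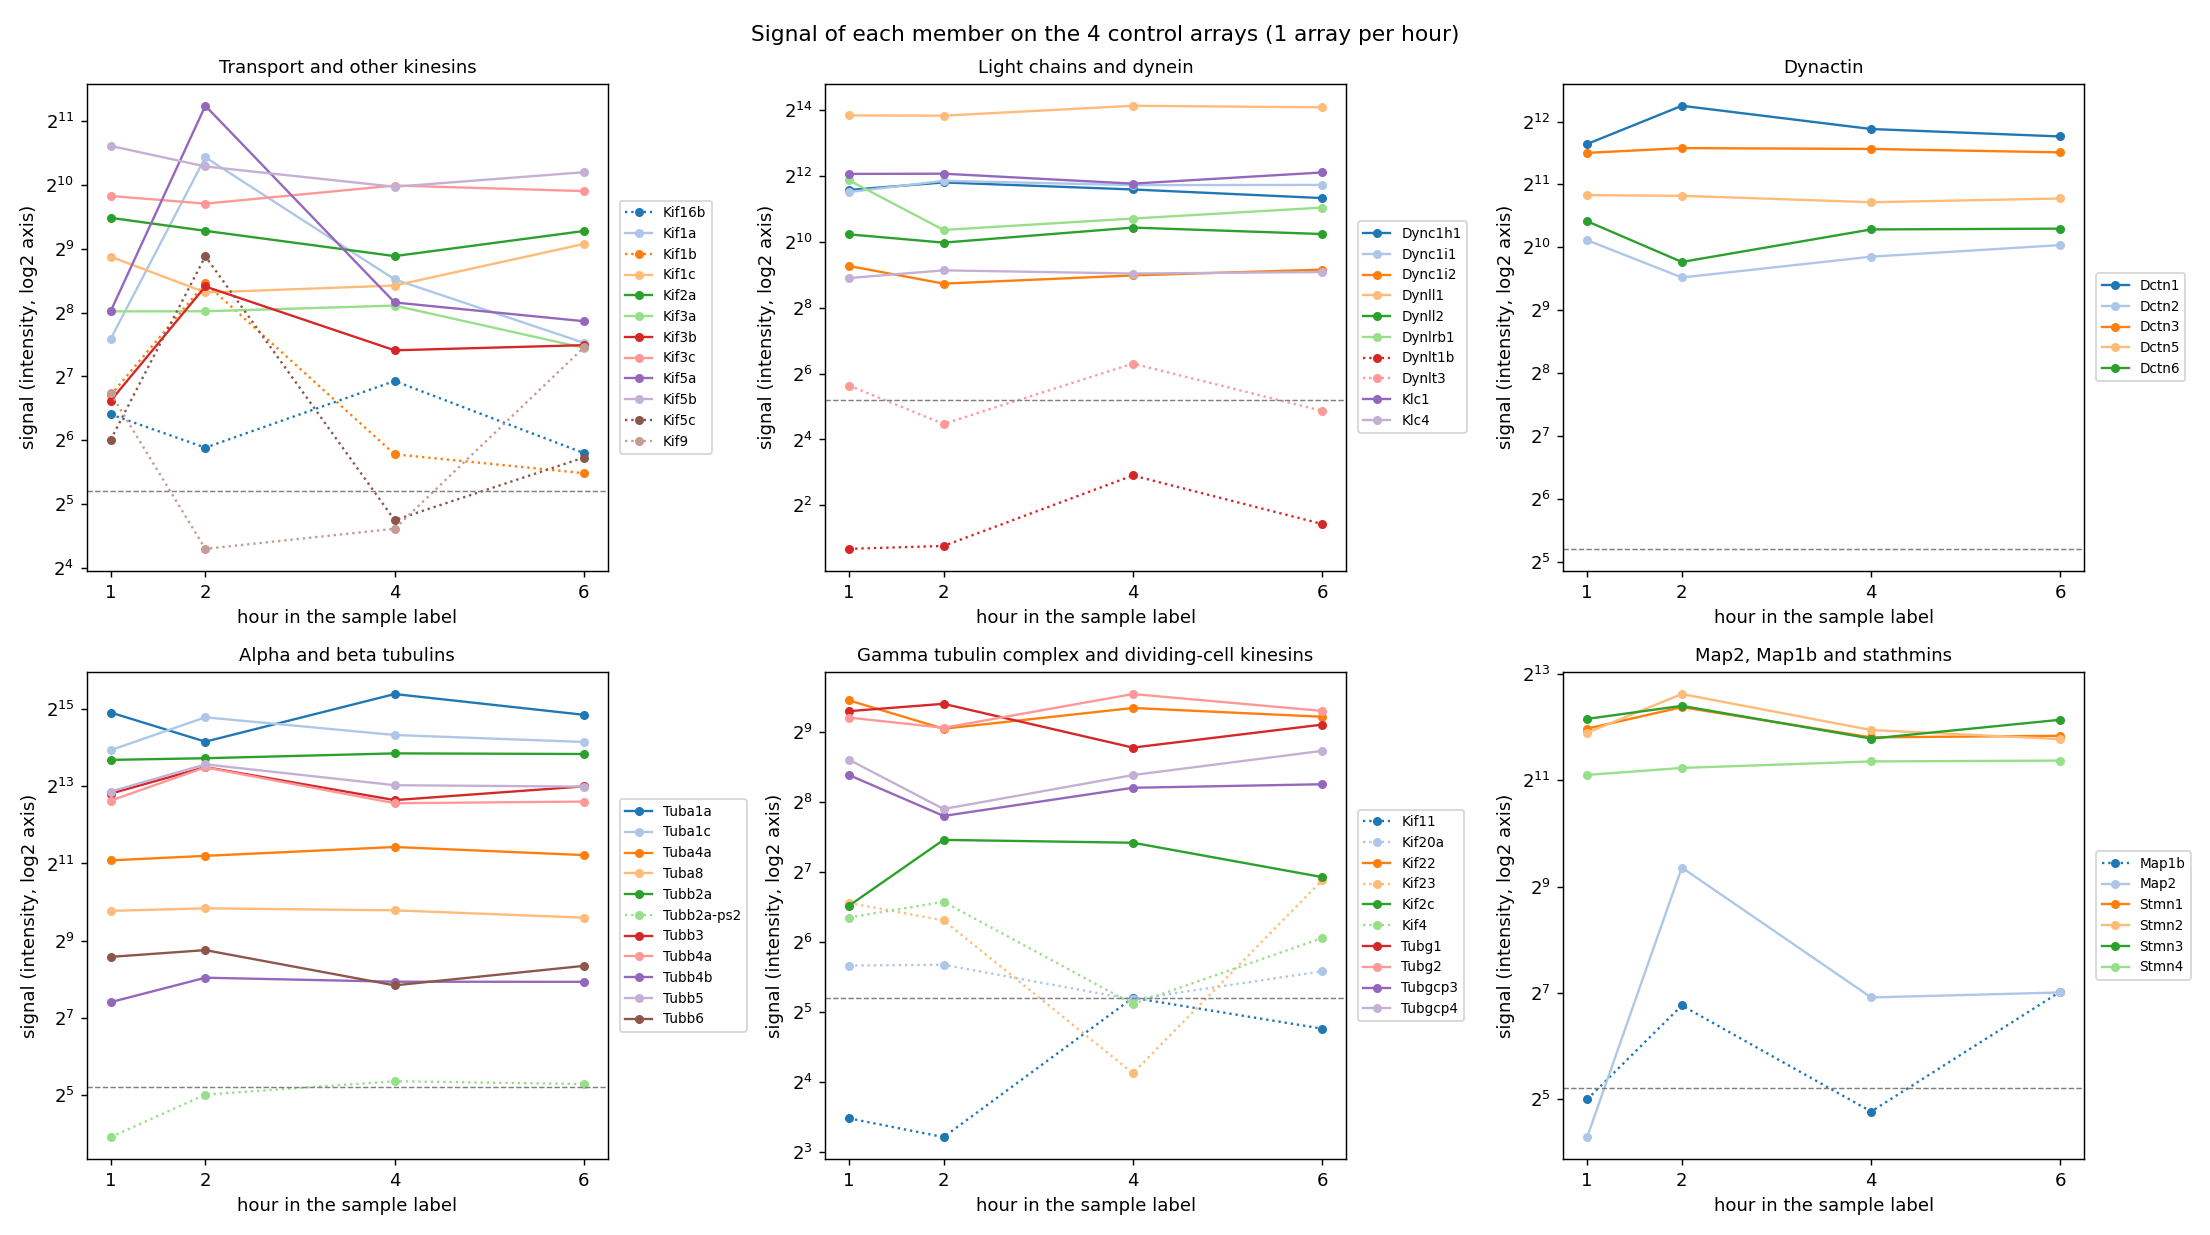
Signal of every gene of the group (brightest probe set) on the 4 control arrays, on a log2 axis, against the hour in the sample label; solid lines are tested genes, dotted lines genes too dim to test, and the dashed line is the floor of 36.8. Kif5a, Kif1a and Kif5c peak at 2 h at 2420.3, 1384 and 472, whereas Dctn3 and Dctn5 run level.

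Of the 54 genes, 6 had a brightest probe set at least 3-fold higher at 2 h than at 1 h. This cut only chose which start regions to show. The share of all genes past it was not counted, so the number cannot be read against all genes. Start regions are shown for the 5 of these 6 genes that RefSeq's promoter table held. That of the steadiest tested gene, Dctn3, is given beside them. Each sequence is a window of 300 bases from RefSeq (GRCm38.p6) that spans a transcript's start and lies mostly before it, written 5′ to 3′ on the gene's strand. Capitals mark GGGCGG, the GC box bound by Sp1, and TGACG, the core of the cyclic AMP response element, on either strand. Kif1a and Kif1b have 2 windows each in the table, and the outermost is given.
Kif1a, chr1:93101825-93102124, minus strand: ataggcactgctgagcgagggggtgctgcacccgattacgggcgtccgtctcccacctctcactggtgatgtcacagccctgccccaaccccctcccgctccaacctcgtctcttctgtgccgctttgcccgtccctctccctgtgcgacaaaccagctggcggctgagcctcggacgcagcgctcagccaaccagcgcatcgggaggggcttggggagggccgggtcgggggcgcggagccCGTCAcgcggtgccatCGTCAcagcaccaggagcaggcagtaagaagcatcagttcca
Kif1b, chr4:149307684-149307983, minus strand: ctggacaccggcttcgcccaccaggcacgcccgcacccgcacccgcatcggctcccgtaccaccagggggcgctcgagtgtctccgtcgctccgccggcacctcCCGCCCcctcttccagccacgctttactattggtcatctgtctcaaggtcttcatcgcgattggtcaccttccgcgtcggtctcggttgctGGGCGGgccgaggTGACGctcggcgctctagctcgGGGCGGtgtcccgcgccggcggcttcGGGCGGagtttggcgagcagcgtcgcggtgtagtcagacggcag
Kif3b, chr2:153291166-153291465, plus strand: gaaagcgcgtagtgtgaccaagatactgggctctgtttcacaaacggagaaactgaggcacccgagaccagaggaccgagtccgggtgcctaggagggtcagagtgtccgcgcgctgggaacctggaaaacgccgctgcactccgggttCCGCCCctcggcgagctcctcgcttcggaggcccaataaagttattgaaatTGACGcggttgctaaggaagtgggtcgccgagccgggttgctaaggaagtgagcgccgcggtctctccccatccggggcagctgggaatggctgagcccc
Kif5c, chr2:49619036-49619335, plus strand: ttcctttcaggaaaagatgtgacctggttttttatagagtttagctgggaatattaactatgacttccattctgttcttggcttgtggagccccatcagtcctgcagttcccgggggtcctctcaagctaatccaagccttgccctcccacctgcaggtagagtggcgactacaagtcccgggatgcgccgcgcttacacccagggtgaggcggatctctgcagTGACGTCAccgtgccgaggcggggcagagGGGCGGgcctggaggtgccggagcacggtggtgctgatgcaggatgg
Map2, chr1:66175079-66175378, plus strand: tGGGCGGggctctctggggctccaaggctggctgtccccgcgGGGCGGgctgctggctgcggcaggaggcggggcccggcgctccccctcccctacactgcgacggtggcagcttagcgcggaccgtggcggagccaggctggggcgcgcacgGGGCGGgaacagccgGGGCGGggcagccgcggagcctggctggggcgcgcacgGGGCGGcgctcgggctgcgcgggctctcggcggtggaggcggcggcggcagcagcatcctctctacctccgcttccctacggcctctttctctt
Dctn3, chr4:41723114-41723413, minus strand: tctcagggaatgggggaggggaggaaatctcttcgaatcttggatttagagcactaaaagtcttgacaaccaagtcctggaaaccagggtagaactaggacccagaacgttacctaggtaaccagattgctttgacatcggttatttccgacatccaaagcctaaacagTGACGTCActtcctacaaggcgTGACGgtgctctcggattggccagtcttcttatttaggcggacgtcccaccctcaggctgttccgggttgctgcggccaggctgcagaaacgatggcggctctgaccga
The GC box letters occurred 5 times in the Map2 window, 4 times in that of Kif1b, 1 time each in those of Kif3b and Kif5c, and not in those of Kif1a and Dctn3. TGACG occurred 2 times in each of Kif1a and Kif5c, 1 time in each of Kif1b and Kif3b, 3 times in Dctn3 and not in Map2. The 2 motifs did not overlap in these windows, while a palindromic TGACG site was counted on each strand. Counted as separate sites, Dctn3 and Kif1a held 2 each and Kif5c 1. Over the 42 genes of the group found in the table, 61.2% of 49 windows held GGGCGG and 42.9% held TGACG, against 35.7% and 20.8% of all 32851 windows. Those windows are of all genes in the promoter table, not only of genes tested here, so the shares are not a like background. The motifs were chosen after the values were seen. Kif5a was not in the table.

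Kinesin light chains, which link conventional kinesin to cargo, were nearly level on their brightest probe sets. Klc1 had 4291, 4310.1, 3497 and 4424, and Klc4 had 479, 563, 527 and 544. The dimmer probe sets of Klc1 were not as level, with 1078, 1383, 1143 and 1229 on one and 382, 860.3, 434 and 422 on the other. The last stood 2.25 times as high at 2 h as at 1 h. A second Klc4 probe set, too dim to test, had 33.0, 64.7, 64.6 and 23.3.

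The 3 Dync chains stayed within 1.5-fold over the 4 arrays. The heavy chain Dync1h1, the motor itself, had 3060, 3586, 3092 and 2580, and the intermediate chain Dync1i1, enriched in neurons, had 2927, 3713, 3388 and 3405. The widely expressed intermediate chain Dync1i2 had 618, 426, 506 and 572, lowest at 2 h. The light chain Dynll1 had 14708, 14626, 18012 and 17449, and its relative Dynll2 had 1202, 1009.8, 1386 and 1210.4. A second Dynll2 probe set disagreed with the first at 4 h, with 1321, 1506, 770 and 1278. Dynlt1b and Dynlt3, light chains of the Tctex type, were too dim to test: Dynlt1b lay between 1.6 and 7.5, under the floor on every array, and Dynlt3 between 22.2 and 79.1.

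Dynlrb1, the roadblock light chain, was the only tested gene of the group at least 2-fold lower at 2 h than at 1 h, and its probe sets disagreed. The brighter one had 3752, 1319, 1677 and 2112, so the 1 h array was high and the other arrays lay below it, at 0.352, 0.447 and 0.563 times its signal. The dimmer one had 606, 769, 753 and 639, with 1 h the lowest. With the probe sets averaged, Dynlrb1 was no longer 2-fold lower at 2 h or 4 h.

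Dynactin held the 2 tested genes of the group with the smallest range. Dctn3, a subunit of the shoulder, had 2974 ± 78.8 (SD over the 4 arrays), with signals of 2898, 3055, 3027 and 2915. Dctn5, of the pointed end, had 1818, 1805, 1682 and 1752. Their highest signals were 1.05 and 1.08 times their lowest. Dctn1, the large subunit that binds both dynein and the microtubule, had 3196, 4872, 3771 and 3473, highest at 2 h. Dctn6, at the pointed end like Dctn5, had 1364, 870.5, 1246 and 1257, lowest at 2 h. Dctn2, whose product dynamitin holds the complex together, was lowest at 2 h on its brighter probe set, with 1107, 734, 922 and 1049, and highest there on the other, with 444, 754, 336 and 388. Against 1 h, the 2 h signals of dynactin subunits ran from 1.52 times the 1 h signal for Dctn1 to 0.638 times for Dctn6.

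On their brightest probe sets all 6 tested beta tubulins were above 1 h at 2 h as deposited, beside 48.8% of all genes, and after quantile normalization. After centring arrays on their medians 5 of 6 were, without Tubb2a, and with probe sets of a gene averaged 4 of 6 were, without Tubb2a and Tubb3. The share of all genes was counted only as deposited. None reached 2-fold. Tubb4a, a brain beta tubulin of axons and myelinating cells, had 6351, 11550.2, 6055 and 6240.1, so the 2 h array stood 1.82-fold above 1 h and the other arrays stayed within 1.05-fold. Tubb5, the general beta tubulin, had 7470.2, 12188, 8376 and 8166, and its second probe set was high at 2 h too, with 4402, 8247, 4028 and 4982. Tubb3, the neuronal beta tubulin, had 7201, 11606, 6404 and 8202, but 3226, 1854, 3058 and 3466 on its second probe set, where 2 h was lowest.

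Tubb2a, a main neuronal isotype, stayed within 1.12-fold at 13208, 13610.2, 14849 and 14684, and lowest at 2 h on a dim second probe set with 243, 186, 217 and 258. Tubb4b, found in most tissues and in cilia, had 169, 262, 244 and 244, with only 1 h low. Tubb6, mostly a non-neuronal isotype, had 382, 431, 228 and 325, with 4 h low. The pseudogene Tubb2a-ps2 lay between 14.9 and 40.7, at or near the floor, and was not tested.

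Of the 4 alpha tubulins 3 were above 1 h at 2 h as deposited, against 48.8% of all genes. After quantile normalization 3 were, and after median centring 1 was, with the share of all genes not counted. Tuba1a, the main alpha tubulin of neurons, had 30973, 18334, 43199 and 29718, lowest at 2 h and highest at 4 h. Its other probe set had 11454, 15216, 13499.9 and 11037, highest at 2 h. Tuba1c had 15741, 28423, 20672 and 18231, so 2 h was 1.81 times 1 h. Tuba4a had 2166, 2349, 2755 and 2382 and Tuba8, a minor isotype, 873, 914, 882 and 772. A second Tuba4a probe set lay between 2.5 and 12.9, under the floor. Tubulin isotypes have closely similar coding sequences. For 6 of the 10 tested alpha and beta tubulin genes, the brightest probe set has an Affymetrix suffix. It stands for probes that are common to several transcripts or for fewer probes than usual. The other tested probe sets of Tuba1a, Tubb2a, Tubb3 and Tubb5 have such a suffix as well. The signals of Tuba1a and Tuba1c, and those of the beta tubulins, may therefore hold RNA of each other and are uncertain as single-gene values.

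**Figure D2:**
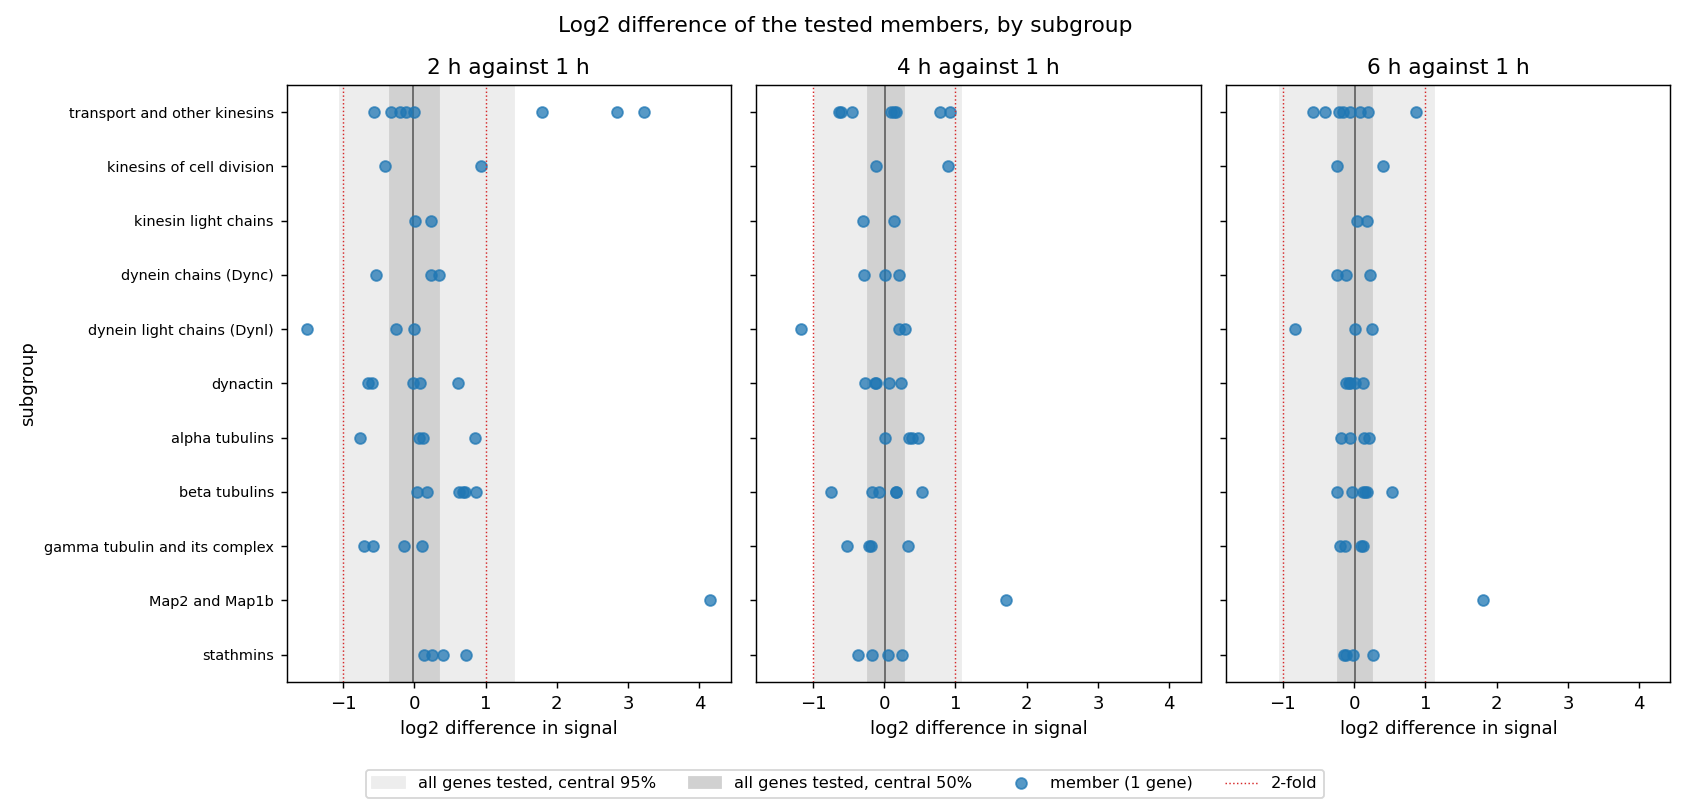
Log2 difference in signal of 2, 4 and 6 h against 1 h (x axis) for each tested gene, by subgroup (rows); grey bands hold the central 50% and 95% of all 5546 genes and dotted lines mark 2-fold. At 2 h Kif5a, Kif1a, Kif3b and Map2 lie right of the 2-fold line and Dynlrb1 left of it, while at 6 h only Map2 lies outside.

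Gamma tubulin, which starts new microtubules, was measured through both its genes. Tubg1 had 630, 677, 439 and 552, and the brain-enriched Tubg2 had 591, 534, 746 and 632. The ring complex genes were lowest at 2 h: Tubgcp3 had 335, 223, 295 and 306, and Tubgcp4 had 389.7, 239, 335 and 425. A second Tubgcp4 probe set, too dim to test, lay between 3.6 and 84.9. It was above the floor only at 4 h, at 2.31 times the floored 1 h value. On their brightest probe sets none of the 4 genes reached 2-fold against 1 h on any array.

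Map2 had the widest range of the group. Its signals were 19.5, 656, 120.5 and 129, so the 1 h array was under the floor, 2 h was high, and 4 and 6 h lay between. Against the floor of 36.8, 2 h was 17.8-fold higher than 1 h, 4 h 3.27-fold and 6 h 3.49-fold. These folds depend on the floor. With it at the pooled 30th percentile the log2 differences were 3.23, 0.79 and 0.88, so 4 and 6 h were then under 2-fold. The 2 h signal was 5.10 times the highest of the others. Map2 passed the filter on dim probe sets only through its 2 h array, so it had to differ there. Map1b was too dim to test, with 31.9, 108, 27.2 and 130.1, high at 2 and 6 h.

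The stathmins stayed within 2-fold on their brightest probe sets. Stmn2, a stathmin of growing axons, had 3805, 6304, 3943 and 3502 on its brightest probe set and 2583, 2497, 2725 and 3002 on the next, where 2 h was the lowest. Its dimmest had 26.4, 70.8, 144 and 186. Stmn1, the general stathmin, had 4016, 5312, 3582 and 3658, highest at 2 h, and a second probe set had 62.1, 32.5, 11.9 and 28.1. Stmn3 had 4559, 5404, 3526 and 4508, and 390.1, 392, 471 and 562 on its dimmer one. Stmn4, a neural stathmin, had 2195, 2404, 2618 and 2646. All 4 stathmins were above 1 h at 2 h on their brightest probe sets, under each of the 3 scalings, and as deposited by 1.10-fold to 1.66-fold. As deposited 48.8% of all genes were above 1 h at 2 h, and that share was not counted under the other scalings.

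Of the 6 kinesins of cell division, Kif22 and Kif2c were bright enough to test. Kif22, which moves chromosomes, had 701, 529, 650.1 and 596. Kif2c, which dismantles microtubules at the kinetochore, had 91.8, 176, 171 and 122, with 1 h lowest. The spindle motors Kif11 (9.3 to 36.9), Kif4 (34.7 to 95.5), Kif23 (17.5 to 118) and Kif20a (36.3 to 51.2) were too dim to test. The markers of dividing cells, of which 4 of 5 were on the array and only Mki67 was tested, summed to 190, 278, 170 and 265, and Top2a lay under the floor on every array.

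**Figure D3:**
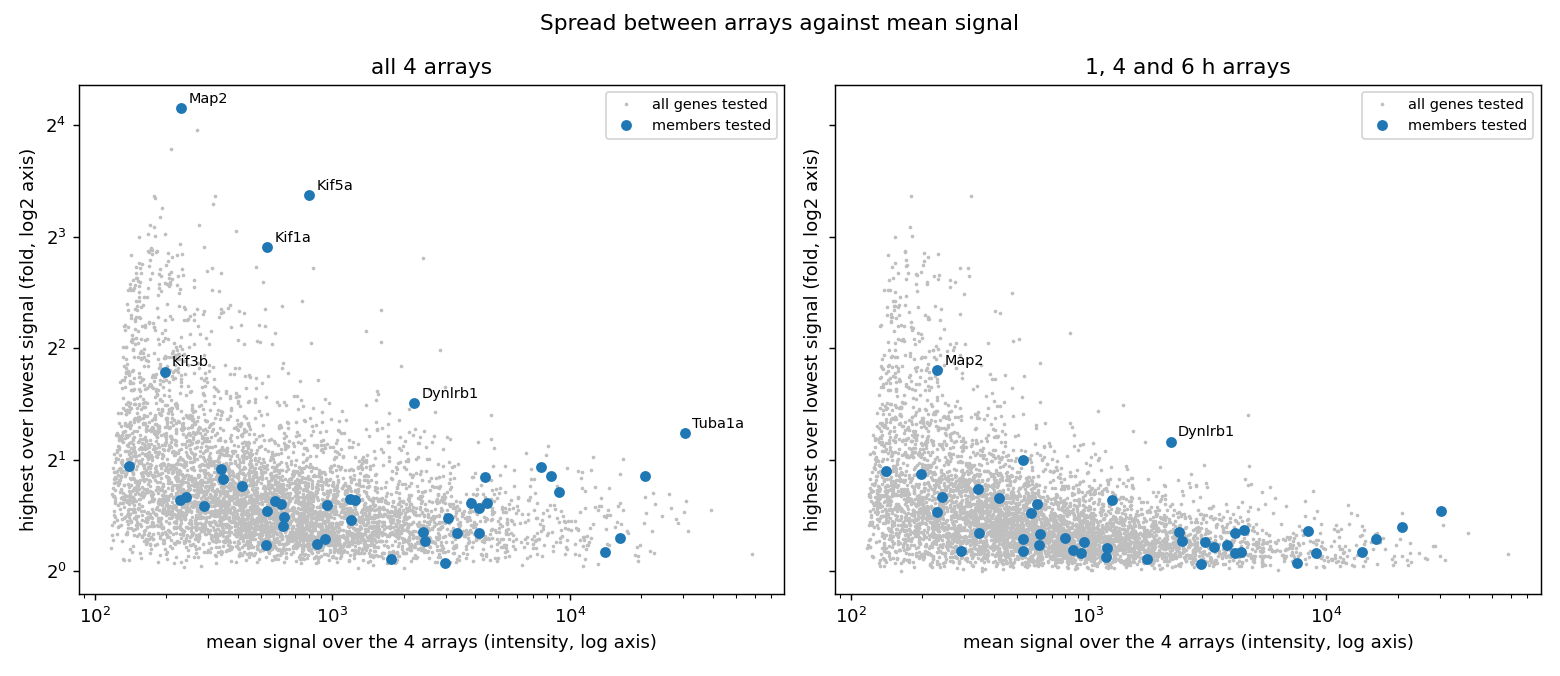
Highest over lowest signal (fold, log2 axis) against mean signal (log axis) for all 5546 genes (grey) and the 42 tested genes of the group (blue), over all 4 arrays (left) and over the 1, 4 and 6 h arrays (right). Map2, Kif5a and Kif1a range over at least 4-fold on the left, whereas on the right only Map2 and Dynlrb1 exceed 2-fold.

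Counted over the 42 tested genes, 4 were at least 2-fold higher at 2 h than at 1 h (Kif1a, Kif3b, Kif5a and Map2), 9.52% against a background of 5.7% of all genes tested. At least 2-fold lower was 1 gene, Dynlrb1, against a background of 2.98%. Among the 1849 brightest genes, those with a mean signal of at least 816, 25 were of this group. Of these 25, 0 were 2-fold higher, against 2.6%, and 1 was 2-fold lower, against 1.57%. Without Map2, whose filter pass rested on the 2 h array, 3 of 41 were 2-fold higher. The share among all genes that reach the filter without the 2 h array was not counted, so that count has no background. With the genes too dim to test included, 7 of 54 were 2-fold higher and 2 were 2-fold lower, against 7.96% and 4.99% of all genes without the filter. Leaving out the 4 h array brings Kif1b and Kif5c past the filter, and leaving out the 6 h array brings in Kif1b. These genes reach it through their 2 h signal alone, as Map2 does, so they had to be higher at 2 h. With them, 6 and 5 genes were 2-fold higher, against 5.74% and 5.75% of all genes. The genes of the group far above each other array at 2 h were Kif1a, Kif5a and Map2, 3 of 42 (7.14%), against 1.37% of all genes, and 0 of 42 were that far below, against 0.956%. Map2 again rested on the filter pass through its 2 h array. Without Map2, 2 of 41 stood that far above, with no share of all genes counted for that set. Without the 4 h array 5 genes stood that far above, against 2.21% of all genes, and without the 6 h array 5 did, against 2.12%. Here too Kif1b, and Kif5c without 4 h, were added by the filter through their 2 h signal, and without 6 h Kif3b was added because its 6 h signal no longer counted. The 1 h array was that far above for 0 of 42, against 0.0361%, and below for 1, Map2, against 1.14%. The 4 h array was above for 0 and below for 0, against 0.198% and 1.12%, and the 6 h array above for 0 and below for 0, against 0.252% and 1.33%. The highest of the 4 arrays was 1 h for 9 of the 42, against 23.6% of all genes, 2 h for 21 (50%), against 28.9%, 4 h for 8, against 23.1%, and 6 h for 4 (9.52%), against 24.4%.

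The median log2 difference over the 42 genes was 0.09 at 2 h, 0.06 at 4 h and -0.0040 at 6 h, beside medians of -0.01, 0.01 and 0.02 over all genes. After centring arrays on their medians, which shifts all genes by -0.12, -0.11 and -0.14, the medians of the group were -0.03, -0.05 and -0.14. Over all genes they were then -0.14, -0.10 and -0.12. At 2 h 26 of 42 (61.9%) were higher than at 1 h by any amount, against 48.8% of all genes. After that centring 19 of 42 were, and the share of all genes after it was not counted. At 4 h 24 of 42 (57.1%) were higher, against 50.7%, and at 6 h 21 of 42, against 51.9%.

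At 4 and 6 h only Map2 was at least 2-fold above 1 h, 1 of 42, against backgrounds of 3.05% and 3.26% of genes. Map2 does not reach the filter when the 2 h array is left out, and the counts are then 0. Dynlrb1 was 2-fold lower at 4 h, 1 of 42 against a background of 2.42%, and 0 of 42 were at 6 h, against 2.69%. Without the 4 h array Kif1b passes the filter and was 2-fold lower at 6 h, as the 1 such gene. Among the 25 bright genes, 0 were 2-fold higher at 4 h and 1 lower, against 0.162% and 0.379%, and 0 were higher and 0 lower at 6 h, against 0.108% and 0.0541%. Signals ranged over at least 4-fold for 3 of 42 (Kif1a, Kif5a and Map2), against 3.7% of all genes. Of these, Map2 passed the filter only through its 2 h array. By contrast 18 of 42 (42.9%) stayed within 1.5-fold over the 4 arrays and 48.8% of all genes did. Over the 1, 4 and 6 h arrays alone 32 of 42 (76.2%) did, against 69.1%. The group's median range was 1.53-fold over 4 arrays and 1.23-fold without 2 h, and that of all genes was 1.51-fold and 1.33-fold.

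No gene of the group passed the test of a trend over the hours. Limma, fitted to all 7237 probe sets as a slope of log2 signal per hour, called 0 of the 42, against 0% of all probe sets, and its lowest adjusted p was 0.9996. Before adjustment 0 of the 42 had a p under 0.05, against 2.71% of all probe sets, and the lowest p in the group was 0.229 (limma). Without the 2 h array limma called 0 of 41, against 0.443% of all probe sets. With 1 sample an hour, the p-values measure only the scatter of these arrays around a line, which may be technical. The steepest downward slopes were those of Kif5a (-0.30 ± 0.26 log2 per hour, SE), Kif1a (-0.21 ± 0.22), Kif3a (-0.10 ± 0.09), Tubb6 (-0.10 ± 0.09) and Dynlrb1 (-0.09 ± 0.12). Upward they were Tuba1a (0.08 ± 0.10), Tubgcp4 (0.07 ± 0.09), Tubb4b (0.07 ± 0.10), Map2 (0.07 ± 0.31) and Kif1c (0.06 ± 0.09). Each of these slopes was smaller than 1.5 times its SE.

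Probe sets of the same gene often disagreed about 2 h. Of the 54 genes, 19 had several, and in 11 pairs of the brightest with another both were tested. Of the 11 pairs, 4 had the same sign at 2 h against 1 h (both Klc1 pairs, Stmn3 and Tubb5), and 5 differed by under 0.5 in log2. The share over all genes with several tested probe sets was not counted, so this cannot be read as particular to the group. A sign says little where a difference is very small. Klc1 (0.0064 and 0.36) had the same sign, while Tubb2a (0.04 and -0.38) and Stmn2 (0.73 and -0.05) did not. The widest gaps were those of Dynlrb1 (-1.51 on the brighter and 0.35 on the dimmer), Tubb3 (0.69 and -0.80), Dctn2 (-0.59 and 0.76) and Tuba1a (-0.76 and 0.41). The Kif5a pair had the same sign (3.22 and 2.35), although its dimmer probe set was not tested and its 1 h value was at the floor. Of the 42 tested genes, 15 were read through a probe set with a suffix for shared or fewer probes, Kif5a, Dynlrb1, Dctn2, Dynll1 and Tubg2 among them.

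**Figure D4:**
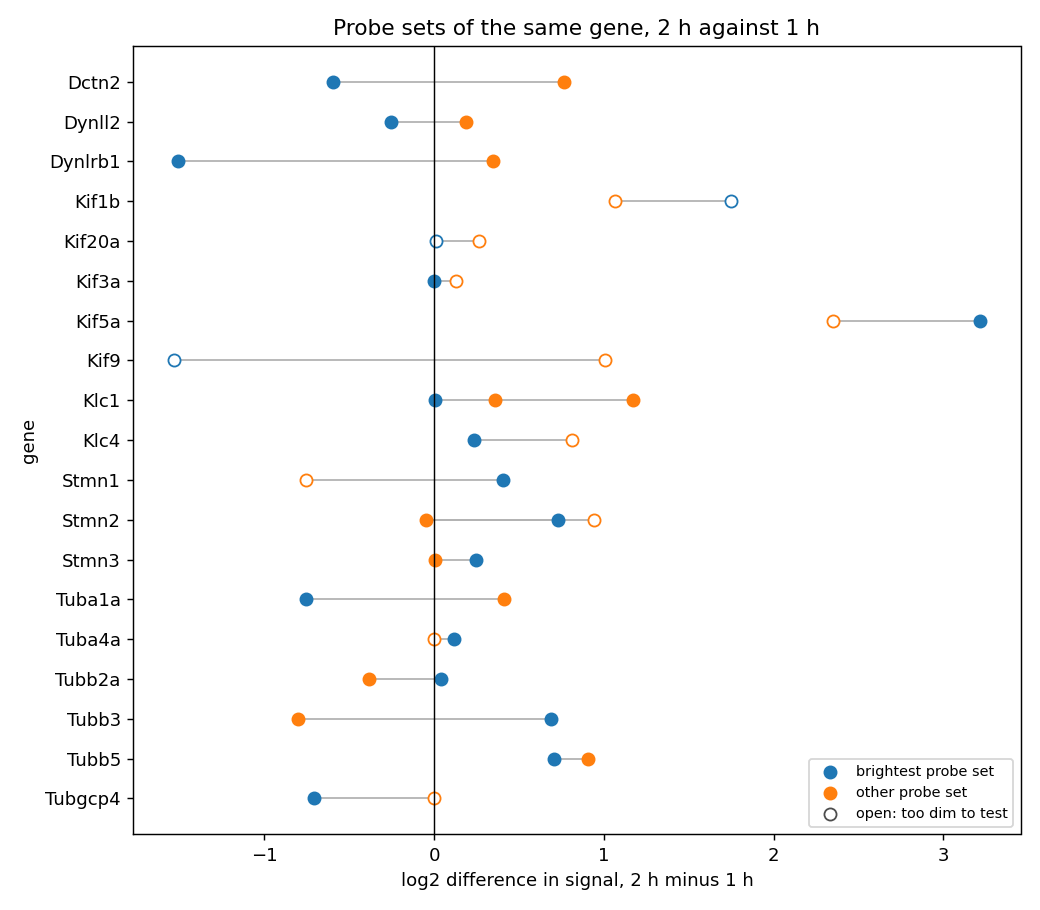
Log2 difference of 2 h minus 1 h (x axis) for each probe set of the 19 genes with several; blue is the brightest, orange the others, and open circles are too dim to test. Kif5a and Kif1b keep their sign across probe sets, while Dctn2, Dynlrb1, Tuba1a and Tubb3 lie on both sides of 0.

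Further genes of microtubules and axonal transport were listed by name. Of 58 listed (plus-end, chaperone, adaptor and neurofilament genes among them), 44 were on the array and 40 were tested. At 2 h against 1 h 3 of 40 were at least 2-fold higher and 0 lower, against backgrounds of 5.7% and 2.98%, and the median log2 difference was 0.03. Nefm, the middle neurofilament, had 134, 573, 265 and 203. Map6, which stabilises microtubules against cold, had 395, 1110.3, 531 and 518. Capzb, an actin capping subunit that is also part of dynactin, had 1922, 4425, 3721 and 2143, high at 4 h as well. At 4 h 0 of the 40 were 2-fold higher and 0 lower, against 3.05% and 2.42% of all genes. At 6 h 1 was higher and 0 lower, against 3.26% and 2.69%. The 1 gene 2-fold higher at 6 h was Kifc3, a minus-end kinesin, with 121, 226, 185 and 293. Clip2 and Actr1a passed 2-fold too but were too dim to test: Clip2, a plus-end linker, had 44.6, 178, 44.1 and 80.9, and Actr1a, the dynactin filament, had 66.6, 109, 183 and 86.7. Limma's trend test called 0 of the 40, and 0 of them had a p under 0.05 before adjustment. Tau, Mapt, the axonal counterpart of Map2, was lowest at 2 h, with 9179, 4749, 8702 and 7329.5.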

How the data were processed

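RNA of 4 control samples was measured on 1 Affymetrix mouse array each. Each deposited file column gives an intensity per probe set, not logged. Which software computed it was not given in the sources used. The arrays' means after trimming 2% at each end differed by 0.0062%, so the deposited intensities were used without further scaling. For log2 values, intensities under the pooled 20th percentile (36.8) were set to it. Probe sets were tested where the mean log2 reached the pooled 40th percentile (116.4), leaving out 66 manufacturer controls. Symbols are those of the platform table, and all 54 matched current ones.

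Slopes over hours were fitted with limma 3.58.1 in R 4.3.3 (trended prior, 2 residual degrees of freedom, two-sided, Benjamini-Hochberg at 0.05 over all probe sets), checked on simulated data. Hours were compared with 1 h by 2-fold counts, without a test. Every gene of the group may be named. Signals are given for those at least 2-fold from 1 h, with the 5 steepest slopes each way, with the 5 smallest ranges, with disagreeing probe sets or on a list of well-known genes, and the rest were added. Of the other microtubule genes, those at least 2-fold from 1 h were named, and Mapt was named after its values were seen. The 3-fold limit for showing start regions and the motifs searched were also set after the values were seen. The members and lists were chosen with earlier results of these data known. Alternatives covered normalization, floor, filter, probe sets, fold, reference array, time scale, variance prior and each array left out. Python 3.11.15, pandas 2.3.3 and matplotlib 3.10.9 were also used.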

Additional observations from a re-analysis of the deposited data

How the results depend on the processing

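With probe sets averaged, 4 of 6 beta tubulins were above 1 h at 2 h. The limma trend test called 0 of the tested genes under every alternative run, each array left out included. Kif5a, Kif1a, Kif3b and Map2 stayed at least 2-fold higher at 2 h than at 1 h under each alternative that tested them against 1 h, with log2 differences of 3.09 to 3.22, 2.72 to 2.84, 1.6 to 1.79 and 3.23 to 5.07. For Kif5a, Kif1a and Kif3b, only quantile normalization and median centring could move these values. The floor, the filter, averaging of probe sets and leaving out the 4 or 6 h array could not, so those alternatives are no check for these genes. Dynlrb1 ranged from -1.63 to -0.58, the last with its probe sets averaged. No paired analysis was possible because each hour has 1 sample. The floor limits Map2, whose 1 h signal lies under it.

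Counts moved with the filter, the fold and the reference. For these alternatives the share of all genes was counted only at 2 h against 1 h with no filter, 7.96% higher and 4.99% lower. The other alternative counts describe the group alone and cannot be read against all genes. At 2 h, genes 2-fold higher or lower against 1 h were 4 and 1 as reported, 7 and 2 with no filter on dim probe sets, 2 higher with the filter at the pooled 60th percentile, and 12 and 5 at 1.5-fold. None was 2-fold lower (0) with probe sets averaged or with the mean of the 3 other arrays as reference. At 4 h they were 1 and 1 as reported, 4 lower with no filter, 4 and 4 at 1.5-fold, and 0 and 0 against the mean of the other arrays, with 0 higher at a floor of the pooled 30th percentile or the stricter filter and 0 lower with probe sets averaged. At 6 h they were 1 and 0 as reported, 2 and 1 with no filter, 2 and 1 at 1.5-fold, and 0 and 2 against the mean of the other arrays, with 0 higher at the higher floor or the stricter filter. Genes at least 2-fold above each other array at 2 h were 3 as reported and 5 with no filter. At 1.5-fold there were 6 above and 1 below. The counts with and without the filter differ because fewer or more genes are tested. For the rest the cause was not tested.

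Leaving out 1 array at a time gave 0 to 1 gene 2-fold higher at 4 h, 0 to 1 higher and 0 to 1 lower at 6 h, and 3 to 5 above each other array at 2 h, with Map2 lost without the 2 h array, Kif1b (without 4 or 6 h) and Kif5c (without 4 h) gained by passing the filter through their 2 h signal, and Kif3b standing above each other array without 6 h. Medians of the log2 difference moved, by more than the SD of the 3 reported medians, to -0.034, -0.052 and -0.14 at 2, 4 and 6 h after median centring, to 0.046 at 6 h after quantile normalization, to 0.0089 at 4 h with no filter and to -0.0030 at 4 h against the mean of the other arrays.

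Some uncalled slopes (log2 per hour) turned sign. That of Map2 became -0.069 with the floor at the 30th percentile. Leaving out 1 array at a time, slopes ran from -0.59 to 0.32 for Map2, from -0.31 to 0.17 for Dynlrb1, from -0.73 to 0.13 for Kif1a, from -0.14 to 0.032 for Kif3a, from -0.12 to 0.19 for Kif1c, from -0.028 to 0.21 for Tubgcp4 and from -0.027 to 0.14 for Tubb4b. The signs turned without the 1 h array for Map2, Dynlrb1 and Tubb4b, without 2 h for Kif1a (0.013), and without 6 h for Kif1a, Kif3a, Kif1c and Tubgcp4. Among genes that reach the filter on the 1, 4 and 6 h arrays, an alternative chosen after seeing the data, 3 were 2-fold higher at 2 h, 1 was lower and 2 stood above each other array. The share of all genes was not counted for that alternative.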
